A study of Mus musculus with 15 samples.

Results

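FGF4 is the fibroblast growth factor (FGF) that mouse embryonic stem cells (ESCs) make in quantity, and its gene is a known target of the transcription factor pair OCT4 and SOX2. Described here are 9 genes chosen by name, out of 48709 genes counted, over all 15 RNA-seq libraries of an experiment in which OCT4 was removed from ESCs. They comprise 4 ligand genes (*Fgf4*, *Fgf8*, *Fgf10* and *Fgf15*), the 4 receptor genes *Fgfr1* to *Fgfr4*, and *Fgfbp1*, which encodes a secreted carrier that frees FGFs from the extracellular matrix. They were chosen by what they encode and not by a threshold on measured values, though with earlier results of these data known.

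FGFs are secreted proteins that bind receptor tyrosine kinases together with heparan sulphate. The bound receptor signals mainly through RAS, RAF, MEK and ERK, and ERK signalling in turn switches on its own inhibitors, such as the Sprouty and DUSP proteins. In the early mouse embryo FGF4 from epiblast cells acts on neighbouring cells through FGFR1 and FGFR2, and it promotes the formation of primitive endoderm and the growth of trophoblast stem cells. Blocking MEK holds ESCs in the naive state, which is why the culture medium of such cells contains a MEK inhibitor.

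The 2 lines lost OCT4, which *Pou5f1* encodes, at the gene or at the protein. CreER ESCs had the genotype Oct4Fl/-; CAG CreER on a mixed 129SV C57BL/6 background, so that 1 allele was floxed and the other null. In these cells 500 nM 4OHT activated a Cre recombinase made from the ubiquitous CAG promoter, and libraries were prepared in duplicate (n = 2) at 0, 12, 18, 24 and 36 h. O4AID ESCs, of the ZHBT line on a 129SV background, were Oct4-/-; TetOFF Oct4; CAG Oct4AID; CAG Tir1. Their wild-type transgene was kept silent with doxycycline at 1 µg/ml, so they lived on an OCT4 fused to an auxin-inducible degron (AID), which TIR1 directs to degradation once the auxin IAA is added. The cells received 500 µM IAA, with a single library (n = 1) for every time point of 0, 1.5, 6, 10 and 24 h. The labels give the same medium for every library, namely N2B27 with LIF, 3 µM Chiron and 1 µM of the MEK inhibitor PD03. The study's own RNA and protein time course of the CreER cells moved them to serum and LIF, without a MEK inhibitor, when 4OHT was added, and whether the sequenced cells were moved as well is not given in the sources used here. The Oct4AID and Tir1 transgenes of O4AID ESCs were driven by the constitutive CAG promoter and not by the *Pou5f1* locus, and the samples used here were not stated to be clones. Nothing in the labels says that replicates came from separate cultures, so p-values measure only the spread between these libraries.

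The counted reads came to 21.7 to 30.8 M per CreER library and 40.5 to 48.7 M per O4AID library. The levels below are counts per M counted reads (CPM) after TMM scaling, a correction for differences in RNA composition, and comparisons between genes use CPM per kb of exon. Counts of genes at 2-fold or more in O4AID were made on (CPM + 1), which shrinks changes at low levels. Naive ESC markers were present in every library, with none of the 9 at 0 counts, and their summed level was 2847 to 2959 CPM at 0 h in CreER and 6444 CPM in O4AID. It was 2333 to 2444 CPM at 36 h in CreER and 1630 CPM at 24 h in O4AID. Of the 9, 2 were higher and 6 lower at 36 h in CreER at an adjusted p under 0.05, beside 19.4% and 17.2% of all genes. All 9 were at least 2-fold lower at 24 h in O4AID, beside 2.96% of all genes. Over the same times the summed level of 10 trophectoderm markers went from between 333 and 346 CPM to between 678 and 708 CPM in CreER, and from 119 to 180 CPM in O4AID. All 10 were called higher at 36 h in CreER, beside 19.4% of all genes. At 24 h in O4AID 3 of the 10 were at least 2-fold higher, beside 3.82% of all genes, and none was lower. Primitive endoderm markers, 8 in all, summed to 87.5 to 89.7 CPM at 0 h and 89.4 to 93.3 CPM at 36 h in CreER, and to 271 and then 200 CPM at 24 h in O4AID. Gene by gene, 2 of the 7 tested were higher and 2 lower at 36 h in CreER at an adjusted p under 0.05 (19.4% and 17.2% of all genes were, median log2FC of the list 0.57), and 3 of the 7 with enough counts were at least 2-fold higher and none lower at 24 h in O4AID (3.82% of all genes were higher, median log2 ratio of the list 0.53), so the sum and the median ran in opposite directions there. Formative and primed epiblast markers, 6 in all, summed to 667 to 672 CPM and then 481 to 484 CPM in CreER, and to 107 and then 126 CPM in O4AID, where *Fgf5* was at 0 counts at both times. All 6 were called lower at 36 h in CreER, beside 17.2% of all genes. At 24 h in O4AID 1 of the 4 with enough counts was at least 2-fold higher, beside 3.82% of all genes, and none was lower. The median log2 ratio of these 4 was -0.15, against the direction of the sum. The sum of 6 fibroblast markers stayed between 2.55 and 9.88 CPM in all libraries. In bulk RNA, more cells of a type and more RNA per cell cannot be told apart, and the part of these marker changes in the results below was not tested.

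The sequence below is shown because it is the part of the *Fgf4* gene that OCT4 and SOX2 are known to bind. It lies at chr7:144864390-144864419 on the plus strand of GRCm38, in exon 3 of *Fgf4*, within the 3′ UTR, 3004 bases downstream of the transcript start in the genome, introns included. The capitals mark a SOX-type stretch (CTTTGTT) and an octamer-type stretch (ATGCTAAT) with 3 bases between them.

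Fgf4 site: aactCTTTGTTtggATGCTAATgggatact

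The letters CTTTGTT, then any 3 bases, then ATGCNAAT were searched on both strands of the GENCODE coding transcripts of 21877 genes. This pattern has the letters and spacing of the *Fgf4* site itself, so that *Fgf4* matches is no finding, and no other gene did (1 of 21877, or 0.00457%). The same arrangement was in 1 of 32851 RefSeq promoter windows (0.00304%), which cover 250 bases before to 50 bases after a gene start, and in none of those of the members. Promoter windows were matched for 6 of the 9 members, namely *Fgf4*, *Fgf10*, *Fgfbp1*, *Fgfr2*, *Fgfr3* and *Fgfr4*, in 7 windows. ATGCNAAT alone was in 3.15% of all windows and CTTTGTT alone in 5.85%, and none of the 7 windows held either. GGGCGG, the core letters of a GC box, was in 35.7% of all windows and occurred 2 times in that of *Fgf4*. These matches describe letters and are not evidence of binding. The 250 bases before the *Fgf4* start, chr7:144861136-144861385 on the plus strand of GRCm38.p6, are shown from RefSeq to set this promoter beside the downstream site, with the GGGCGG stretches in capitals.

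Fgf4 promoter: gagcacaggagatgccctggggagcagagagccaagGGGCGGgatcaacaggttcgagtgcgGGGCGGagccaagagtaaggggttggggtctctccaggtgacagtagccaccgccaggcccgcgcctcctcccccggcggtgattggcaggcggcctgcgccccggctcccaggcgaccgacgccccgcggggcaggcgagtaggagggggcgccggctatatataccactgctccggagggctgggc

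In untreated cells *Fgf4* was the highest of the members per kb of exon in both lines. In CreER at 0 h the level of *Fgf4* was 41.0 ± 0.14 CPM per kb (SD, n = 2), followed by *Fgfr1* at 13.2 ± 0.55, *Fgfbp1* at 10.9 ± 1.0, *Fgfr2* at 3.39 ± 0.051 and *Fgf15* at 2.08 ± 0.23. *Fgfr4* at 0.473 ± 0.063, *Fgfr3* at 0.257 ± 0.030, *Fgf10* at 0.222 ± 0.0098 and *Fgf8* at 0.146 ± 0.0015 CPM per kb were far below these. No neighbours in this order overlapped, and *Fgfr3* and *Fgf10* were the closest, with 51 counts in each library for *Fgfr3* and 27 and 30 for *Fgf10*. In the O4AID library at 0 h *Fgf4* stood at 76.4 CPM per kb, *Fgfr1* at 7.69, *Fgfbp1* at 1.35, *Fgfr4* at 0.662 and *Fgfr2* at 0.659. *Fgf10* at 0.203, *Fgfr3* at 0.150, *Fgf8* at 0.0506 and *Fgf15* at 0.0372 CPM per kb were the lowest, and *Fgf8* and *Fgf15* rested on 3 and 5 counts. *Fgf4*, *Fgfr1* and *Fgfbp1* thus led in both lines, *Fgf15* was the lowest in O4AID but not in CreER, and in O4AID *Fgfr4* and *Fgfr2* were all but level per kb. Their counts were 103 and 299, over annotated exon lengths of 3542 and 10328 bases. Values per kb, here and for the receptor shares below, depend on those annotated lengths. With 1 O4AID library and a different strain and genotype, the difference between lines was not tested.

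*Pou5f1*, the targeted gene, was measured first as a check of the labels. In CreER its level was 321 and 317 CPM at 0 h, 220 and 228 CPM at 12 h, 163 and 164 CPM at 18 h, 132 and 134 CPM at 24 h, and 112 and 123 CPM at 36 h. The log2 fold change (log2FC) was -0.51 ± 0.043 (SE) at 12 h with an adjusted p of 5.2e-08 and -1.43 ± 0.045 at 36 h with an adjusted p of 4.2e-19, so the counted level fell at each step and some remained. Whether the CreER counts include reads from the null or the recombined allele is not given in the sources used here. In O4AID, where IAA acts on the protein, the *Pou5f1* level was 766, 866, 723, 703 and 633 CPM at 0, 1.5, 6, 10 and 24 h. Those counts include transcripts of the transgenes and do not check the loss of the protein.

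*Fgf4* fell in CreER ESCs and was lower in each O4AID library than in the one before. In CreER the *Fgf4* counts were 3359 and 3954 at 0 h, and the level was 131 CPM in both libraries. It was 114 and 109 CPM at 12 h, 95.1 and 94.2 CPM at 18 h, 85.7 and 85.9 CPM at 24 h, and 78.4 and 78.5 CPM at 36 h. The 2 libraries of each time lay below both libraries of the time before, and the pairs did not overlap. Against 0 h the log2FC of *Fgf4* was -0.23 ± 0.043 (SE) at 12 h (adjusted p = 0.0080), -0.46 ± 0.043 at 18 h (adjusted p = 4.8e-08), -0.60 ± 0.043 at 24 h (adjusted p = 6.1e-11) and -0.73 ± 0.044 at 36 h (adjusted p = 3.2e-13), a 1.65-fold lower level. The step from 24 to 36 h, a log2FC of -0.12 ± 0.045, did not pass (adjusted p = 0.063), though it did with total-count scaling (adjusted p = 0.0012) and with a filter of at least 10 counts in every library (adjusted p = 0.044). The call at 12 h was lost when either 12 h library was left out, with an adjusted p of 0.098 without replicate 1 and 0.24 without replicate 2.

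In O4AID ESCs the *Fgf4* counts were 10722, 7411, 5085, 3861 and 1247 at 0, 1.5, 6, 10 and 24 h, or 244, 176, 130, 98.9 and 27.2 CPM. A difference from 0 h was already there in the 1.5 h library, and the longest interval held the largest step. The log2 ratio of (CPM + 1) against 0 h, with its 95% counting interval, was -0.47 (-0.51 to -0.43) at 1.5 h, -0.90 (-0.95 to -0.86) at 6 h, -1.30 (-1.35 to -1.24) at 10 h and -3.12 (-3.20 to -3.04) at 24 h, the last being an 8.69-fold lower level. With 1 library per time these intervals cover counting error only, and no p-value was computed. At 24 h, the one time of treatment the lines share, the log2 change of *Fgf4* on the (CPM + 1) scale was -0.60 in CreER and -3.12 in O4AID, and over the same hours *Pou5f1* RNA had a log2FC of -1.255 in CreER and a log2 ratio of -0.27 in O4AID. The difference between the lines was not tested.

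**Figure D1:**
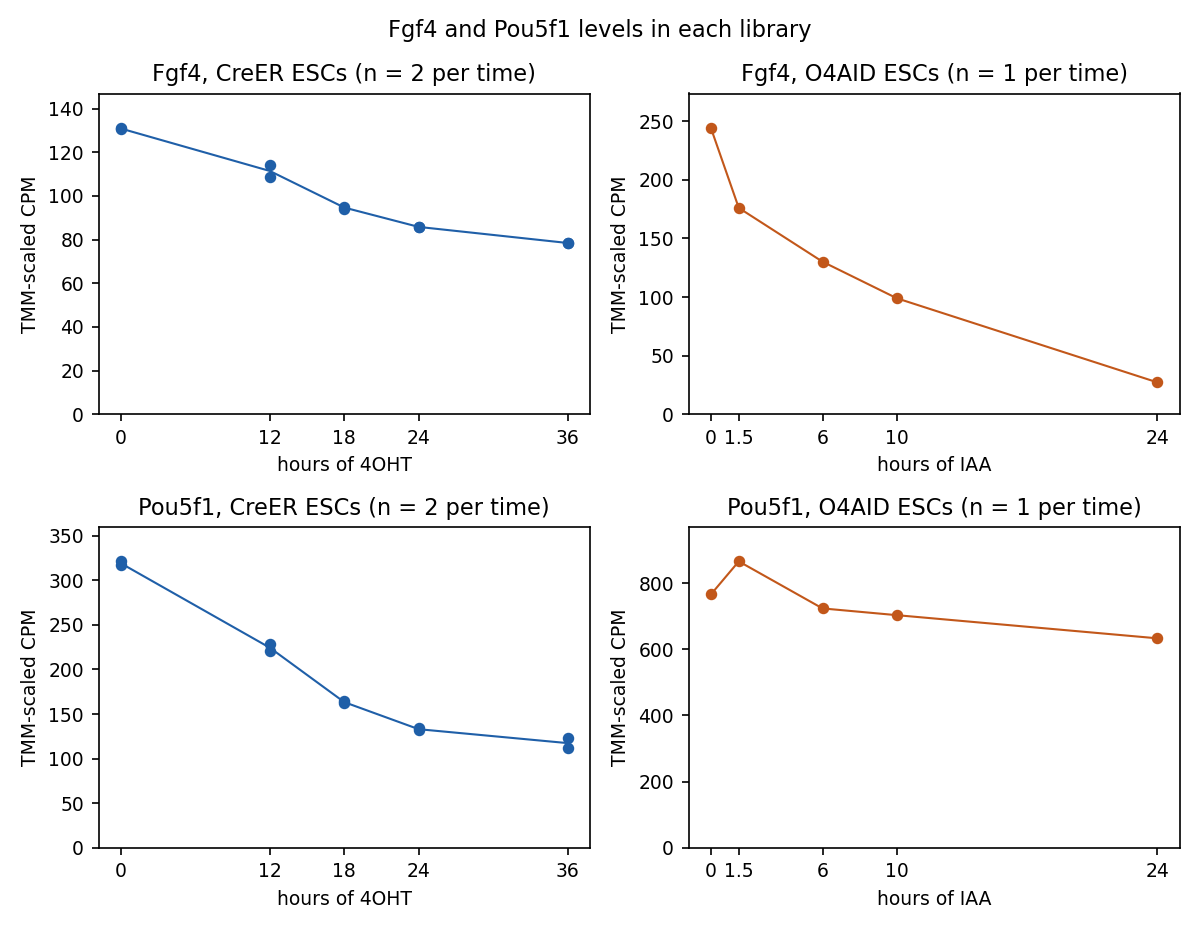
TMM-scaled CPM of Fgf4 (top) and Pou5f1 (bottom) against hours of treatment, in CreER ESCs (left, 2 libraries per time) and O4AID ESCs (right, 1 library per time). Points are libraries and lines join the means. Fgf4 went from 131 to between 78.4 and 78.5 CPM over 36 h in CreER and from 244 to 27.2 CPM over 24 h in O4AID, while Pou5f1 RNA stayed at 633 CPM or more in O4AID.

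*Fgf15* encodes a ligand of the endocrine FGF group and lies next to *Fgf4* on chromosome 7. In CreER its counts were 176 and 178 at 0 h, 156 and 135 at 12 h, 83 and 113 at 18 h, 80 and 63 at 24 h, and 47 and 39 at 36 h. In CPM, both libraries of every later time were below both 0 h libraries. The log2FC was -0.30 ± 0.13 at 12 h, which did not pass (adjusted p = 0.51), then -0.85 ± 0.14 at 18 h (adjusted p = 1.7e-04), -1.37 ± 0.15 at 24 h (adjusted p = 9.0e-08) and -1.78 ± 0.17 at 36 h (adjusted p = 1.8e-09), which is 3.43-fold lower. In the O4AID libraries *Fgf15* had 5, 3, 12, 4 and 0 counts in time order, so no change was readable there. A count of 0 at 24 h allows a level of up to 0.0655 CPM.

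*Fgf10*, a ligand known for its action on epithelia through FGFR2, was present at 7 to 34 counts in the CreER libraries. Its counts were 27 and 30 at 0 h and 7 and 12 at 36 h, and the 36 h log2FC of -1.31 ± 0.38 passed (adjusted p = 0.0077). That call rested on 1 library, since without replicate 1 of 36 h the log2FC was -0.84 with an adjusted p of 0.17. In O4AID *Fgf10* had 41, 39, 23, 23 and 47 counts, and the log2 ratio at 24 h was 0.067 with an interval from -0.23 to 0.36. *Fgf8*, a patterning ligand of the gastrulating embryo, had 4 to 12 counts in CreER libraries and 3 to 9 in O4AID libraries, too few to enter the CreER test or the O4AID count of changes.

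*Fgfbp1* did not pass against 0 h at any time in CreER, though without replicate 1 of 0 h it did at 18 h (adjusted p = 0.022) and 24 h (adjusted p = 0.030). Its level was 26.4 and 23.1 CPM at 0 h, 27.3 and 28.1 CPM at 18 h, and 23.0 and 23.7 CPM at 36 h, and the libraries at 0 and 36 h overlapped. Between 24 and 36 h the log2FC of -0.21 ± 0.072 passed narrowly (adjusted p = 0.0499), and the call was lost with DESeq2 (adjusted p = 0.15) and without any 1 of the 4 libraries compared (adjusted p from 0.089 to 0.24). In O4AID *Fgfbp1* had 134, 112, 136 and 162 counts up to 10 h and 249 at 24 h, where only the last stood well apart from the first. The log2 ratio at 24 h was 0.67 (0.43 to 0.90), under the 2-fold line used.

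Of the 4 receptors, *Fgfr2* had the largest change at 36 h in CreER. The gene encodes a receptor that trophoblast and primitive endoderm cells are known to use. In CreER the *Fgfr2* level was 34.7 and 35.4 CPM at 0 h, 37.9 and 37.4 CPM at 12 h, 45.5 and 46.8 CPM at 18 h, 56.2 and 56.4 CPM at 24 h, and 78.8 and 79.2 CPM at 36 h. Each pair of libraries lay above the pair before it. The log2FC against 0 h was 0.10 ± 0.055 at 12 h (adjusted p = 0.61), 0.40 ± 0.054 at 18 h (adjusted p = 1.0e-05), 0.69 ± 0.053 at 24 h (adjusted p = 1.6e-10) and 1.18 ± 0.052 at 36 h (adjusted p = 4.5e-16), a 2.27-fold higher level. The last step, from 24 to 36 h, was 0.49 ± 0.049 (adjusted p = 5.0e-08).

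In O4AID ESCs *Fgfr2* began far lower and went up and partly back. Its counts were 299, 292, 485, 745 and 622, or 6.81, 6.93, 12.4, 19.1 and 13.6 CPM at 0, 1.5, 6, 10 and 24 h. The log2 ratio was 0.023 (-0.18 to 0.23) at 1.5 h, 0.78 (0.59 to 0.97) at 6 h, 1.36 (1.19 to 1.54) at 10 h and 0.90 (0.72 to 1.08) at 24 h. The intervals at 10 and 24 h did not overlap, which concerns these libraries and their counting error alone. The annotated *Fgfr2* entry shares 314 exon bases on the same strand with *Ctbp2*, a gene of 3132 to 10730 counts, and how reads there were assigned is not given in the sources used here.

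*Fgfr1*, the main receptor of ESCs and epiblast, rose from 18 h on in CreER, where its level was 134 and 126 CPM at 0 h, 130 and 129 CPM at 12 h, 149 and 145 CPM at 18 h, 155 and 158 CPM at 24 h, and 175 CPM in both libraries at 36 h. The 12 h libraries lay between those of 0 h, and all later libraries were above them. The log2FC was -0.0038 ± 0.042 at 12 h (adjusted p = 0.99), 0.18 ± 0.042 at 18 h (adjusted p = 0.0052), 0.28 ± 0.042 at 24 h (adjusted p = 1.8e-05) and 0.44 ± 0.042 at 36 h (adjusted p = 2.5e-09). The 18 h call was lost without replicate 2 of 0 h (adjusted p = 0.10) and without replicate 1 of 18 h (adjusted p = 0.11). From 24 to 36 h the log2FC of *Fgfr1* was 0.16 ± 0.041 (adjusted p = 0.0071), a call lost with total-count scaling (adjusted p = 0.43) and without replicate 1 or replicate 2 of 24 h (adjusted p = 0.077 and 0.055). In O4AID the *Fgfr1* log2 ratio was -0.0085 (-0.078 to 0.061) at 1.5 h, 0.14 (0.076 to 0.21) at 6 h, 0.37 (0.30 to 0.43) at 10 h and 0.44 (0.38 to 0.51) at 24 h, from 3333, 3178, 3284, 3835 and 4746 counts.

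*Fgfr3* and *Fgfr4*, which encode the receptors best known from cartilage and liver, had 46 to 81 and 29 to 70 counts in CreER libraries. *Fgfr3* had 51 counts in each 0 h library and 81 and 78 at 24 h, a log2FC of 0.58 ± 0.19 that passed at that time alone (adjusted p = 0.027). The call was lost with DESeq2 (adjusted p = 0.15) and without replicate 2 of 0 h (0.20), replicate 1 of 24 h (0.053) or replicate 2 of 24 h (0.17). *Fgfr4* did not pass at any time in CreER, with a log2FC of 0.41 ± 0.20 at 24 h (adjusted p = 0.15) and -0.11 ± 0.22 at 36 h (adjusted p = 0.75). From 24 to 36 h it changed by -0.52 ± 0.21, which passed with total-count scaling alone (adjusted p = 0.10, and 0.034 with that scaling). In O4AID *Fgfr4* had 103, 86, 80, 76 and 56 counts, and its log2 ratio at 24 h was -0.59 (-0.87 to -0.30). *Fgfr3* in O4AID had 28 to 68 counts and a log2 ratio at 24 h of 0.26 (-0.036 to 0.55).

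**Figure D2:**
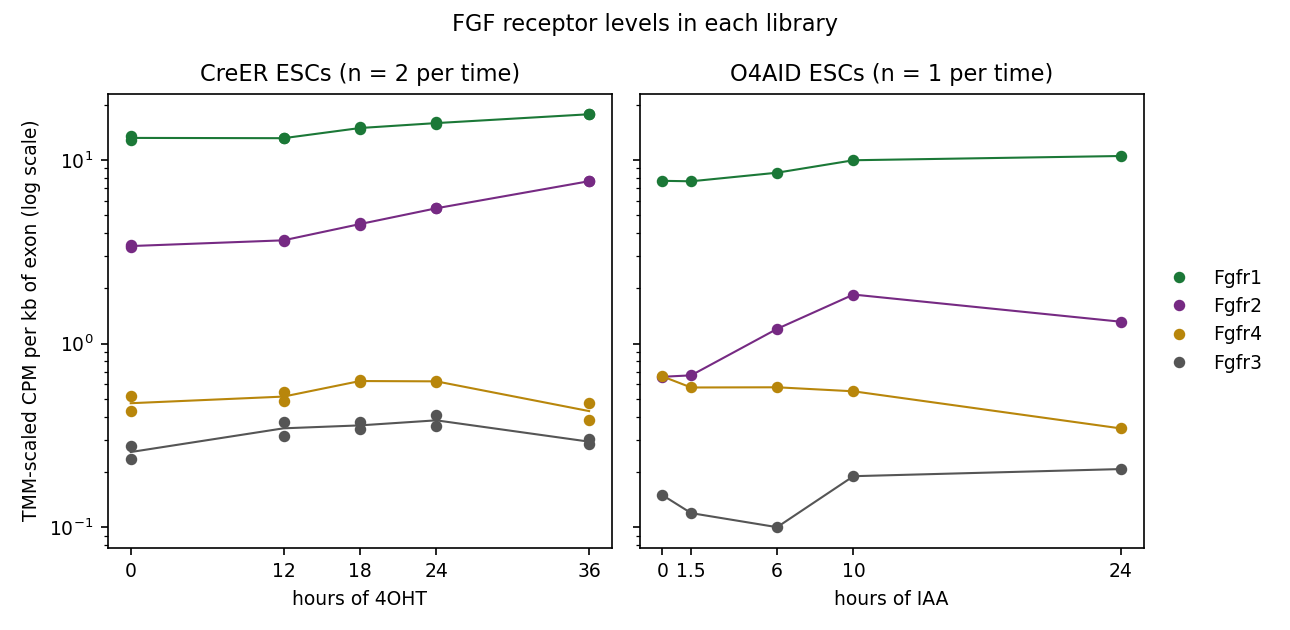
TMM-scaled CPM per kb of exon, on a log scale, of the 4 FGF receptor genes against hours of treatment in CreER ESCs (left, 2 libraries per time) and O4AID ESCs (right, 1 library per time). Points are libraries and lines join the means. Fgfr1 was the highest in all libraries, Fgfr2 went from between 3.36 and 3.43 to between 7.63 and 7.67 in CreER, and Fgfr2 and Fgfr4 started level in O4AID at 0.659 and 0.662.

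The makeup of the receptor transcripts shifted alongside. Per kb of exon, *Fgfr1* made up 76.5% and 75.7% of the summed receptor level in the CreER libraries at 0 h and 67.9% in both at 36 h. *Fgfr2* made up 19.0% and 20.3% at 0 h, 24.6% and 24.3% at 24 h, and 29.2% and 29.5% at 36 h. The ratio of *Fgfr2* to *Fgfr1* per kb was 0.248 and 0.269 at 0 h and 0.430 and 0.434 at 36 h. In O4AID that ratio was 0.0858 at 0 h, 0.186 at 10 h and 0.125 at 24 h. *Fgfr4* went from 7.23% of the O4AID receptor level at 0 h to 2.79% at 24 h. Set against the ligand, *Fgf4* stood at 41.1 and 40.9 CPM per kb beside *Fgfr2* at 3.36 and 3.43 in CreER at 0 h, and at 24.5 and 24.6 beside 7.63 and 7.67 at 36 h. In O4AID *Fgf4* at 76.4 stood beside *Fgfr2* at 0.659 CPM per kb at 0 h, and at 8.52 beside 1.31 at 24 h.

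Over all members, 8 of 9 were tested in CreER and *Fgf8* was not. At 12 h 1 of the 8 was called (*Fgf4*), where 0.395% of all 18969 genes tested were. At 18 h 4 were called beside 8.52% of all genes, at 24 h 5 beside 21.6%, and at 36 h 5 beside 36.6%. At 36 h the 2 called higher were *Fgfr1* and *Fgfr2*, against a background of 19.4% called higher, and the 3 called lower were *Fgf4*, *Fgf15* and *Fgf10*, against 17.2% called lower. Between 24 and 36 h 3 were called, *Fgfr1* and *Fgfr2* higher and *Fgfbp1* lower, beside 14.7% of all genes. The median log2FC of the 8 at 36 h was -0.090 and that of all genes 0.0070. Every comparison with 0 h uses the same 2 control libraries.

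In O4AID 7 members averaged at least 10 counts at the times compared. A member was counted as changed at 2-fold or more on the (CPM + 1) scale, and none was at 1.5 h or at 6 h, where 0.0858% and 0.977% of all genes were. At 10 h *Fgf4* and *Fgfr2* were, beside 2.13% of all genes, and at 24 h *Fgf4* alone was, beside 6.78% (3.82% higher and 2.96% lower). With total-count scaling *Fgfr2* also was at 24 h, at a log2 ratio of 1.01. The median log2 ratio of the 7 at 24 h was 0.26 and that of all genes -0.022.

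**Figure D3:**
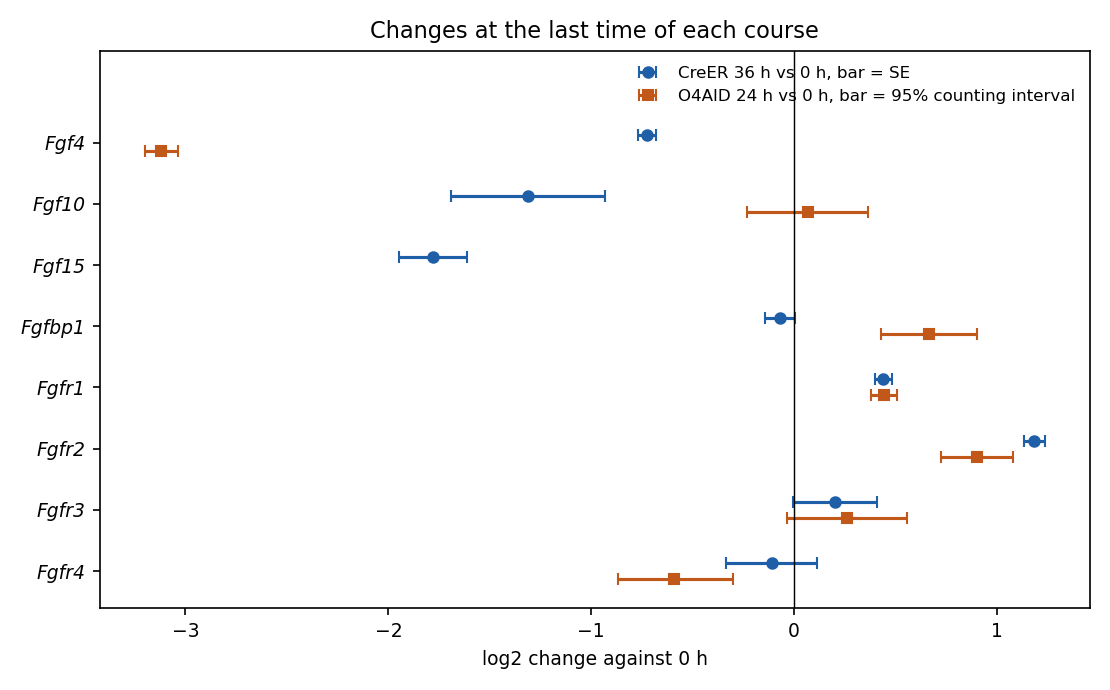
Log2 change against 0 h of each member with enough counts, in CreER ESCs at 36 h (circles, bars are the SE of the edgeR fit of 10 libraries) and in O4AID ESCs at 24 h (squares, bars are 95% counting intervals of 2 libraries). Fgf4 was lower in both lines at -0.73 and -3.12, Fgfr1 stood at 0.44 in both, and Fgfr2 at 1.18 and 0.90.

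The genes beside *Fgf4* were examined because *Fgf4* lies in a cluster with other FGF genes. Of 13 annotated genes within 250 kb on chromosome 7, 6 averaged at least 10 counts, *Fgf4* included. *Fgf15*, described above, lies downstream and had larger log2FCs in size than *Fgf4* at each time in CreER, -0.30, -0.85, -1.37 and -1.78 against -0.23, -0.46, -0.60 and -0.73. *Fgf3*, another ligand gene that lies just upstream, had 10 to 32 counts in CreER and did not pass there (log2FC at 36 h 0.035 ± 0.40, adjusted p = 0.96). In O4AID it had 291, 296, 277, 230 and 98 counts, and its log2 ratio was 0.085 (-0.12 to 0.29) at 6 h and -1.28 (-1.52 to -1.03) at 24 h. At 6 h the *Fgf4* ratio was thus already at -0.90 while the *Fgf3* interval held 0. *Ccnd1*, which encodes cyclin D1, had log2FCs in CreER of -0.19 ± 0.043 at 24 h (adjusted p = 0.0018) and -0.24 ± 0.044 at 36 h (adjusted p = 7.0e-05), and a log2 ratio of -0.90 (-1.01 to -0.79) in O4AID at 24 h. *LTO1*, whose annotated end overlaps that of *Ccnd1* on the other strand, did not pass in CreER (0.15 ± 0.091 at 36 h, adjusted p = 0.20) and stood at 0.19 (0.026 to 0.36) in O4AID at 24 h. *Ano1*, a chloride channel gene, had 16 to 36 counts in all libraries and did not pass in CreER (log2FC at 36 h 0.14 ± 0.32, adjusted p = 0.77).

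**Figure D4:**
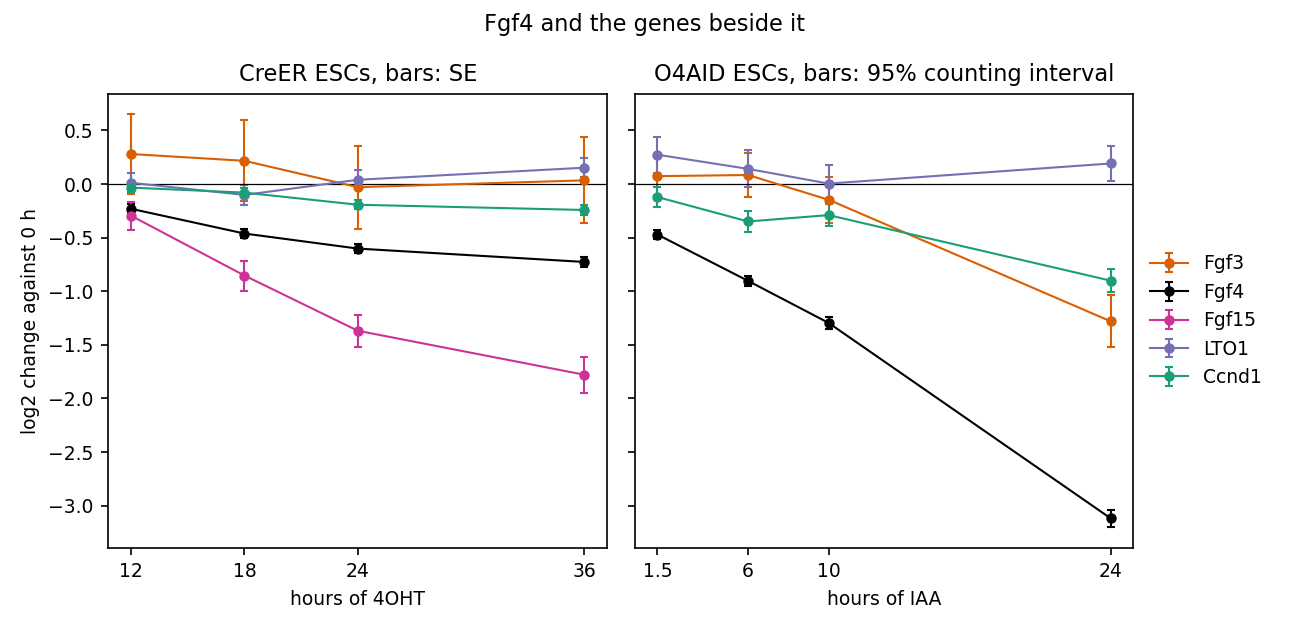
Log2 change against 0 h of Fgf4, Fgf3, Fgf15, LTO1 and Ccnd1, which lie within 250 kb, against hours of treatment, in CreER ESCs (left, bars are SE) and O4AID ESCs (right, bars are 95% counting intervals of 1 library per time). Fgf15, drawn in CreER alone since its O4AID counts are too few, is the lowest line there at -1.78 by 36 h, Fgf4 stands at -0.73 by 36 h in CreER and -3.12 by 24 h in O4AID, and LTO1 stays between -0.10 and 0.27.

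The genes whose pattern was most like that of *Fgf4* were ranked by Pearson's r of log2(CPM + 1), taking the lower of r over the 10 CreER libraries and r over the 5 O4AID libraries, among 14073 genes averaging at least 50 counts. The libraries of a line share a time course, so these values are a description. *Mycn*, a MYC family transcription factor gene, came first with r of 0.984 in CreER and 0.992 in O4AID. It changed by -0.83 at 36 h in CreER (adjusted p = 2.6e-14) and by -1.54 at 24 h in O4AID. *Rngtt*, the mRNA capping enzyme gene, *Gtf2h2*, which encodes a subunit of the general factor TFIIH, *Ppa1*, an inorganic pyrophosphatase gene, and *Mtfr1*, a mitochondrial fission regulator gene, followed with lower r between 0.973 and 0.974. Their 24 h log2 ratios in O4AID, -0.42, -0.35, -0.66 and -0.79, were much smaller in size than the -3.12 of *Fgf4*. Among the members with enough counts, *Fgf15* had an r of 0.973 with *Fgf4* in CreER and 0.480 in O4AID, where it had at most 12 counts. *Fgfr4* had -0.132 and 0.983, *Fgfbp1* -0.036 and -0.934, *Fgfr1* -0.931 and -0.892, *Fgfr2* -0.935 and -0.614, and *Fgfr3* -0.432 and -0.667.

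The remaining FGF family genes were mostly low. Of 18 listed, 9 were tested in CreER, and at 36 h 2 were called, beside 36.6% of all genes, both lower: *Fgf5*, a marker of the primed epiblast, at -0.95 ± 0.14 (adjusted p = 5.8e-06), and *Fgf17*, a relative of *Fgf8*, at -0.80 ± 0.10 (adjusted p = 4.8e-07). The *Fgf5* level in CreER did not fall throughout, at 6.60 and 7.22 CPM at 0 h, 8.45 and 9.82 CPM at 24 h, and 3.04 and 3.99 CPM at 36 h. In O4AID at 24 h 2 of 6 with enough counts were at least 2-fold lower on the (CPM + 1) scale, beside 2.96% of all genes. These were *Fgf3* as given and *Fgf1* at -1.13 (-1.40 to -0.84), from 2.82 to 0.742 CPM. *Fgf13*, at 0.410 and then 0.0873 CPM, had a ratio of -0.37 on that scale and was not counted. Of 19 genes for co-receptors, heparan sulphate synthesis and carriers, 6 were higher and 2 lower at 36 h in CreER, beside the 19.4% and 17.2% of all genes given above. *Sdc4*, a heparan sulphate proteoglycan, rose from 147 to 242 CPM (log2FC 0.73 ± 0.044, adjusted p = 2.4e-13), *Fgfbp3*, a second FGF carrier, rose from 0.766 to 1.47 CPM (0.89 ± 0.31, adjusted p = 0.024), and *Kl*, the Klotho co-receptor of endocrine FGFs, rose from 0.465 to 1.02 CPM (1.11 ± 0.37, adjusted p = 0.018). *Sulf1*, which trims heparan sulphate, fell from 101 to 56.4 CPM (-0.82 ± 0.051, adjusted p = 4.3e-13), and *Ext1*, which builds it, changed by -0.39 ± 0.064 (adjusted p = 1.9e-05). In O4AID at 24 h 2 of 17 were at least 2-fold higher, beside 3.82% of all genes: *Fgfbp3* went from 1.55 to 11.9 CPM, a log2 ratio of 2.34 (2.095 to 2.567), and *Fgfrl1*, a receptor without a kinase domain, from 46.0 to 99.3 CPM, a log2 ratio of 1.09 (1.02 to 1.17).

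Of 21 genes of the signalling chain below the receptors, 9 were higher and 6 lower at 36 h in CreER, with a median log2FC of 0.037, beside 19.4% and 17.2% of all genes, and the other 6 did not pass. *Ksr1*, a scaffold of the kinase cascade, changed by 0.70 ± 0.073 (adjusted p = 1.3e-08), *Frs2*, the docking protein of FGF receptors, by 0.63 ± 0.064 (adjusted p = 8.0e-09) and *Sos1*, an activator of RAS, by 0.37 ± 0.051 (adjusted p = 1.9e-06). The adaptor gene *Grb2* changed by -0.49 ± 0.085 (adjusted p = 6.5e-05), *Mapk3*, which encodes ERK1, by -0.41 ± 0.065 (adjusted p = 1.1e-05) and *Nras* by -0.24 ± 0.042 (adjusted p = 3.1e-05). In O4AID none of the 21 was at 2-fold at 24 h, and their median log2 ratio was -0.017. The nearest to it, named here after their values were seen, were *Frs2* at a log2 ratio of 0.98 and *Frs3*, its close relative, at -0.97.

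Of 11 feedback inhibitors and response genes of ERK signalling, 1 was higher and 6 lower at 36 h in CreER, beside 19.4% and 17.2% of all genes, with a median log2FC of -0.28. *Spry1*, a Sprouty inhibitor gene, rose from 15.5 to 19.3 CPM (0.33 ± 0.077, adjusted p = 0.0011). *Egr1*, an immediate early transcription factor gene, changed by -1.04 ± 0.15 (adjusted p = 4.4e-06), and the ETS factor genes *Etv5* and *Etv4* by -0.57 ± 0.039 (adjusted p = 4.2e-12) and -0.38 ± 0.069 (adjusted p = 1.2e-04). On the (CPM + 1) scale 3 of 10 were at least 2-fold lower in O4AID at 24 h, beside 2.96% of all genes, and none was higher. *Spry2* went from 60.9 to 10.7 CPM, a log2 ratio of -2.40 (-2.53 to -2.27). *Etv5* went from 599 to 217 CPM, a log2 ratio of -1.46 (-1.49 to -1.43). *Dusp6*, an ERK phosphatase gene, went from 7.90 to 3.10 CPM, a log2 ratio of -1.12 (-1.34 to -0.89). *Spry4* went from 1.96 to 0.589 CPM but was not counted, since its log2 ratio on that scale was -0.90. These lists were drawn up from textbook knowledge with earlier results of these data known, and their counts carry no test of the lists as such.

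Several of the response genes stood at unlike levels in the untreated cells of the 2 lines, for both of which the labels give a MEK inhibitor. *Spry4* was at 188 and 195 CPM in CreER and at 1.96 CPM in O4AID, *Dusp4* at 62.1 and 64.4 CPM against 1.82, and *Dusp6* at 129 and 131 CPM against 7.90. *Fgf5* was at 6.60 and 7.22 CPM in CreER and at 0 counts in the O4AID library. Others differed less, as *Spry2* at 88.6 and 89.8 CPM in CreER against 60.9 in O4AID, *Spred1* at 113 and 121 CPM against 60.1, and *Etv4* at 58.4 and 63.2 CPM against 59.6. *Etv5* ran the other way, at 337 and 348 CPM in CreER against 599 in O4AID. The lines also differ in strain, genotype and number of libraries, and the part of these and of the medium in the levels was not tested.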

How the data were processed

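The authors made directional libraries from RNA freed of ribosomal RNA, sequenced them as read pairs and, per the labels, used Trim Galore 0.1.4, TopHat2 2.1.0 (mm10, GRCm38) and featureCounts 1.5.1 with Ensembl release 86. The strand setting of the counting was not given in the sources used here, so antisense overlaps (*Fgfr3*, *Fgf15*, *Fgfr1* and *Fgf10*) cannot be separated. The deposited files hold raw counts per gene, whole numbers as the authors' counter gave them. Their TMM table was not used, and 92 spike-in entries with 0 reads were left out. Genes without a symbol held 0.0412% of reads and stayed in the tests.

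CreER counts were tested with edgeR 4.0.16 (quasi-likelihood, TMM, filterByExpr, robust, prior count 0.125, R 4.3.3), with all 10 libraries in 1 fit and Benjamini-Hochberg adjustment over 18969 genes. Calls used an adjusted p under 0.05. For O4AID, log2 ratios of (TMM CPM + 1) with 95% Wilson intervals combined over both libraries (SciPy 1.17.1) were used, a gene being counted at 2-fold and a mean of at least 10 counts. The study's test on simulated replicates was not repeated. Intervals and floors of 3 counts cover counting error only. Scripts were tested on simulated counts. DESeq2 1.42.0, other scalings and filters, a replicate block and leave-one-out fits were the alternatives. For O4AID they included adding 0.1 or 5 in place of 1 to the CPM. The members, lists and rules were chosen with earlier results of these data known. Named besides the members were *Pou5f1*, the 5 genes most like *Fgf4*, its neighbours within 250 kb, and up to 3 genes per direction from each pathway list and line. *Frs3*, *Spry4*, *Dusp4*, *Spred1* and *Fgf13* fell outside this rule and were named with their values known.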

Additional observations from a re-analysis of the deposited data

Results flagged for a closer look

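*Fgf10* and *Fgfr4* had values of opposite sign in the lines at 24 h, the one time of treatment both courses share. Neither difference was tested, and neither gene passed its CreER test at that time. *Fgf10* had a log2 difference from 0 h of -0.19 in CreER on the log2(CPM + 1) scale (adjusted p = 0.40) and a log2 ratio of 0.067 in O4AID, whose 95% counting interval ran from -0.23 to 0.36 and so held the CreER value. *Fgfr4* had a log2 difference of 0.26 in CreER, where the adjusted p was 0.15, and a log2 ratio of -0.59 in O4AID with a counting interval from -0.87 to -0.30. *Fgfr4* rested on 46 to 70 counts in the CreER libraries and 103 and 56 counts in the O4AID libraries compared.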

How the results depend on the processing

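The number of members called in CreER stayed within 1.5 times its value under RLE and total-count scaling, DESeq2, both filters, a fit of the 4 libraries compared, and the replicate block. The replicate block gave 1, 4, 5 and 5 members called at 12, 18, 24 and 36 h, and 3 between 24 and 36 h, as without it, and changed no call. Replicate numbers did not pair the libraries, since deviations of same-numbered libraries correlated at -0.021 to 0.050. Leaving out 1 library gave 0 to 1 members called at 12 h and 1 to 2 between 24 and 36 h. Among members called, 180 fits kept the call and 17 lost it in the same direction, and of those not called 5 became called. Total-count scaling moved the median of all genes by -0.11 between 24 and 36 h in CreER and by 0.13 in O4AID at 24 h. Between 24 and 36 h it left *Fgfr1* at 0.057 (adjusted p = 0.43) and put *Fgf4* at -0.23 (adjusted p = 0.0012). Signs changed only in members not called. With total-count scaling *Fgfbp1* at 12 h stood at -0.021. Leaving out 1 library gave log2FCs at 12 h from -0.082 to 0.12 for *Fgfbp1*, -0.049 to 0.040 for *Fgfr1*, -0.022 to 0.26 for *Fgfr4* and -0.66 to 0.078 for *Fgf10*. At 36 h it gave -0.28 to 0.025 for *Fgfr4* and -0.17 to 0.028 for *Fgfbp1*. In O4AID a fold of 1.5 counted 2 members at 6 h and 4 at 24 h, by its own construction, and total-count scaling counted 2 at 24 h. Adding 0.1 or 5 to the CPM left the number of members at 2-fold the same at each time, but low-level ratios changed in size. With 0.1, 1 and 5 added, *Fgfr4* at 24 h stood at -0.89, -0.59 and -0.24. *Fgfr2* at 10 h stood at 1.47, 1.36 and 1.03, *Fgf10* at 6 h at -0.59, -0.28 and -0.086, and *Fgf4* at 24 h at -3.16, -3.12 and -2.95. Depth limits *Fgf8*, *Fgf10*, *Fgfr3* and *Fgfr4* in both lines and *Fgf15* in O4AID.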
